A study of Mus musculus with 8 samples.

Results

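The Frizzled genes Fzd1 to Fzd10 encode the cell surface receptors for Wnt ligands, and they were examined here in the limbus and the cornea of the mouse eye. The members are the rows of the deposited expression table whose gene name is one of these 10 symbols, and all 10 were found among 23420 rows that name a gene. Limbal rims, the ring of tissue that holds the limbal epithelial stem cells, and corneal buttons, the cornea inside that ring, were dissected from wild type 8-week-old C57BL/6J mice that received no treatment. Tissue of several eyes was pooled, so no value belongs to 1 animal. The labels number 4 samples per tissue in a form also used for sequencing lanes, and do not state whether these are replicates. The table was built from 1 cornea library with 26104317 reads on named genes and 1 limbus library with 21182025. Replicate error could therefore not be given and nothing was tested. Reads of each library were recovered from the table, and a normalized read is a read divided by the size factor of its library, namely 1.03 (cornea) and 0.967 (limbus). Each ratio between the tissues carries an exact Clopper-Pearson interval at the 95% level. A gene was called higher in a tissue when this interval excluded equal levels, with a library of 3 reads or fewer set to 3. These intervals cover counting error only, since reads copied by PCR are not independent molecules and the spread between animals is not in them.

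A Frizzled protein spans the membrane several times and binds a Wnt ligand through a cysteine-rich domain outside the cell. Together with the co-receptors Lrp5 and Lrp6 it recruits Dishevelled, which halts the complex that destroys beta-catenin, whereas signals through Ror or Ryk proteins and the planar cell polarity genes act without beta-catenin. In the cornea, Wnt signals are known for their part in eye development and in the growth of limbal stem cells. By sequence the receptors fall into 4 homology groups, namely Fzd1, Fzd2 and Fzd7, then Fzd5 and Fzd8, then Fzd4, Fzd9 and Fzd10, and lastly Fzd3 and Fzd6.

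Keratins of the epithelium went with the labels of the libraries. Krt12, the keratin of the differentiated corneal epithelium, had a log2 ratio of limbus over cornea of -2.19, while the limbal keratins Krt15, Krt14 and Krt19 had log2 ratios of 3.32, 2.52 and 4.54. Markers of other tissues were higher in the limbal library. All 7 marker genes of blood vessel endothelium were higher in the limbus and their summed normalized reads went from 236 in the cornea to 3064. The same held for all 6 of smooth muscle and pericytes (346 and 2960), all 5 of skeletal muscle (77.4 and 9975), all 5 of melanocytes (306 and 1644), all 5 of retina and pigment epithelium (412 and 3941), all 4 of trabecular meshwork and sclera (813 and 3985), all 4 of leukocytes (889 and 5173) and both of Schwann cells (4195 and 5799). The Schwann cell sums were almost all Mbp, at 4192.5 and 5680.4 normalized reads. Of the conjunctival genes, 4 of 5 were higher in the limbus, and Muc5ac, the mucin of goblet cells, had 1 read in each library. Of the corneal endothelium, a cell layer of the cornea itself, 3 of 4 marker genes were also higher in the limbus, and the list went from 2517 to 6658 normalized reads. No marker gene was at 0 in either library. The part of these tissues in the Frizzled values was not tested, and in such bulk tissue fewer cells of a type and less RNA per cell cannot be told apart.

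The make-up of the Frizzled transcripts differed between the tissues. The corneal library had Fzd6 as its leading receptor by far, and the limbal library shared its reads more evenly between Fzd6 and Fzd1. Beyond counting error, 6 of the 10 genes had a higher limbal level (Fzd1, Fzd2, Fzd3, Fzd7, Fzd8 and Fzd10) and 3 a higher corneal level (Fzd4, Fzd5 and Fzd6), and Fzd9 was in neither group. By the same rule the limbal level was higher for 36.0% and the corneal level for 40.5% of all 13932 genes whose mean was 10 normalized reads or more. At this depth most genes therefore passed, 76.6% in either direction, and the 9 Frizzled genes with a mean of at least 10 all did.

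**Figure D1:**
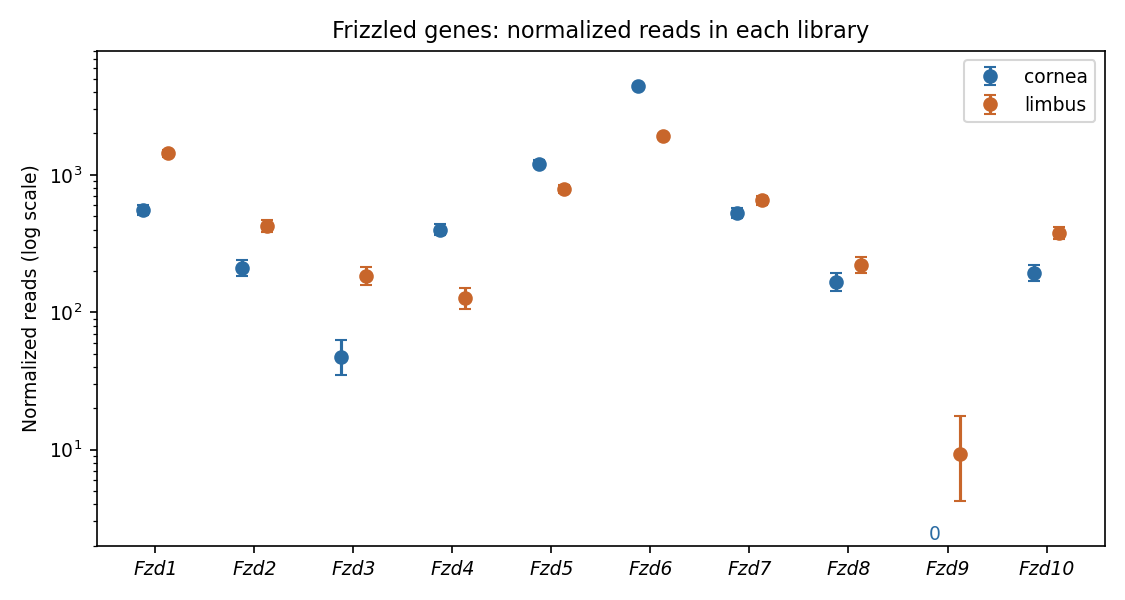
Normalized reads of each Frizzled gene on a log axis in the cornea (blue) and limbus (orange) libraries, with bars for the exact Poisson interval at the 95% level of the 1 library. Fzd6 stands highest in both libraries, at 4436 and 1906, and Fzd9 lowest, with 0 marked for the cornea.

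The differences that reached 2-fold were fewer. Fzd1, Fzd2 and Fzd3 were at least 2-fold higher in the limbus by their ratios, 3 of 9, where 17.7% of all genes were. Fzd4 and Fzd6 were at least 2-fold higher in the cornea, 2 of 9, where 8.75% of all genes were. The interval of Fzd2 reaches below 2-fold. Over the 9 Frizzled genes the median log2 ratio was 0.40, against -0.04 for all genes, and the median size of change without regard to sign was 1.01 against 0.51. With 9 genes these are descriptions of the list. The middle of the all-gene distribution was wide on the limbal side, its 5th to 95th percentiles running from -1.26 to 3.42.

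**Figure D2:**
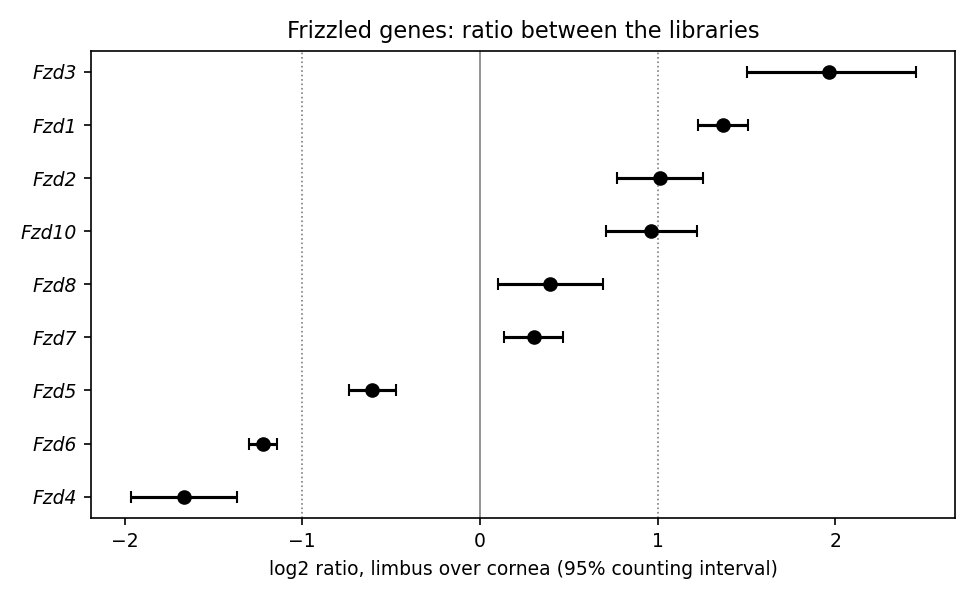
Log2 ratio of limbus over cornea for the 9 Frizzled genes with reads in both libraries, with the exact counting interval at the 95% level, a solid line at equal levels and dotted lines at 2-fold. The ratios run from -1.66 for Fzd4 to 1.96 for Fzd3, and no interval crosses the solid line.

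Promoter sequences are shown for 1 limbal and 2 corneal receptors. RefSeq windows of 300 bases, 250 before the start and 50 after, were found for 6 of the 10 genes (Fzd1, Fzd4, Fzd5, Fzd7, Fzd9 and Fzd10). Shown are the bases before the transcript for Fzd1, higher in the limbus, at chr5:4758217-4758466 on the minus strand, and for Fzd4 and Fzd5, higher in the cornea, at chr7:89404116-89404354 on the plus strand and chr1:64737752-64738000 on the minus strand. Capitals mark GC boxes, GGGCGG on either strand, a motif bound by Sp family factors, and adjacent boxes can share bases.
Fzd1: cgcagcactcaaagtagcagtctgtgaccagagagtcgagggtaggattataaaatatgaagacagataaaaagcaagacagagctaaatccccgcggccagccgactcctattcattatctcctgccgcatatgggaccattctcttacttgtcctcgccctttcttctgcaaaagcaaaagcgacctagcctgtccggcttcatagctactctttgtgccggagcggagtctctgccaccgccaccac
Fzd4: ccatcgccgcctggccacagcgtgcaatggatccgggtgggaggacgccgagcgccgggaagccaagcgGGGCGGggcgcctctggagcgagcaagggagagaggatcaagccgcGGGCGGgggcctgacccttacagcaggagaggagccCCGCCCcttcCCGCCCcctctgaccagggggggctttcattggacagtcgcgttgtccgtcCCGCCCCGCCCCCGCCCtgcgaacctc
Fzd5: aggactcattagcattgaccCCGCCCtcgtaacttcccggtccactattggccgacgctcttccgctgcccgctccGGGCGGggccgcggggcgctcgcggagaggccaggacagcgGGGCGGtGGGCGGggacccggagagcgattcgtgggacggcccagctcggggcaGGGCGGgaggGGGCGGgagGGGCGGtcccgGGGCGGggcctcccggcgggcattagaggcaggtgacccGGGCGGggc

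The windows differed in their number of GC boxes. The full 300 bases held 10 boxes in Fzd5 and 8 in Fzd4, none in Fzd1, and 35.7% of all 32851 promoters of this length hold at least 1. Fzd7, which was higher in the limbus, had 7 boxes, and Fzd9 and Fzd10 had 1 each. The 2 corneal genes thus had the most boxes, with Fzd7 close behind, which over 6 genes is a description. By the GENCODE starts, all of the Fzd10 window and part of the Fzd9 window lie inside the transcript. Their box counts and GC content thus include transcribed bases under that annotation. The Fzd1 window, chr5:4758167-4758466 on the minus strand, lies wholly upstream of its GENCODE start at 4758035. The Fzd7 window ends at 59482196, before its GENCODE start at 59482424. Under that annotation the bases next to the Fzd1 and Fzd7 starts were not counted, and the windows compared lie at unlike distances from the start. The GC content was 54.0% in Fzd1, near the median of all promoters (52.7%), and between 66.7% and 78.0% in the other 5, where limbal Fzd10 (77.7%) lay above corneal Fzd4 (72.7%) and Fzd5 (75.7%). The TATA box letters TATAAA occurred once, in Fzd1 at position -202 from the RefSeq start, and in 13.6% of all promoters. Whether these letters act as a TATA box there was not tested. The TCF/LEF motifs CTTTGAT and CTTTGAA, through which beta-catenin acts, were in none of the 6 windows and in 3.73% and 5.14% of all promoters.

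Fzd1, Fzd2 and Fzd7 form 1 homology group, and all 3 were higher in the limbus. Fzd1 had 574 corneal and 1385 limbal reads, or 555 and 1432 normalized reads, a ratio of 2.58-fold (log2 ratio 1.37, interval 1.23 to 1.51). Fzd2, also known as a receptor for Wnt5a, had 217 and 410 reads, or 210 and 424 normalized reads, a 2.02-fold ratio (log2 ratio 1.01, interval 0.77 to 1.26). Fzd7, a receptor of epithelial stem cells in the intestine, had 548 and 632 reads, or 530 and 653 normalized reads, with a ratio of 1.23-fold (log2 ratio 0.30, interval 0.13 to 0.47). The intervals of Fzd1 and Fzd7 did not overlap, so the members of this group moved the same way but by unequal amounts. Summed over the group, reads went from 1339 in the cornea to 2427 in the limbus, 1.94-fold (log2 ratio 0.95, interval 0.86 to 1.05).

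Fzd3 and Fzd6, the receptors of tissue polarity, moved in opposite directions. Fzd6, which orders hair follicles in mouse skin, had 4586 corneal and 1844 limbal reads. These were 4436 and 1906 normalized reads, 2.33-fold higher in the cornea (log2 ratio -1.22, interval -1.30 to -1.14). Fzd6 held rank 865 among all genes by normalized reads in the cornea and rank 2088 in the limbus, and 5.49% of genes had a ratio as low or lower. The deposited values also came within 0.000653 of a second pair of reads for Fzd6, 6548 and 8, which is higher in the cornea too, while the pair used came within 2.2e-06. Fzd3, which guides growing axons, had 49 corneal and 179 limbal reads, or 47.4 and 185 normalized reads, which made it 3.90-fold higher in the limbus (log2 ratio 1.96, interval of the fold 2.83 to 5.47). It had the highest ratio of the 9 genes but was the second lowest of all 10 in level. Sox10, a marker of the Schwann cells of nerves, was also higher in the limbus, from 2 reads to 115. Mbp, the other Schwann cell marker, went from 4334 reads to 5495 (log2 ratio 0.44). The part of nerve tissue in the Fzd3 ratio was not tested.

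The group of Fzd4, Fzd9 and Fzd10 was split as well. Fzd4, the receptor for Norrin that directs the growth of retinal vessels, had 413 corneal and 122 limbal reads. It went from 400 to 126 normalized reads and was 3.17-fold higher in the cornea (log2 ratio -1.66, interval -1.97 to -1.37), with 2.42% of genes at a ratio as low or lower. The markers of vessel endothelium were higher in the limbus by unequal amounts, among them Pecam1 from 6 reads to 831, Cdh5 from 3 to 421 and Kdr from 170 to 278. The part of vessels in the Fzd4 ratio was not tested. Fzd10 had 200 corneal and 365 limbal reads, or 193 and 377 normalized reads, 1.95-fold higher in the limbus (log2 ratio 0.96, interval 0.71 to 1.22). Fzd9, known from brain and bone, had 0 corneal and 9 limbal reads. With the corneal library set to 3 reads the interval of its log2 ratio starts at -0.32, so no direction was given.

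Fzd5 and Fzd8, both known from the developing eye, differed in direction too. Fzd5 had 1245 corneal and 766 limbal reads, or 1204 and 792 normalized reads, 1.52-fold higher in the cornea (log2 ratio -0.60, interval -0.74 to -0.47). Fzd8 had 173 and 213 reads, or 167 and 220 normalized reads, and was 1.32-fold higher in the limbus (log2 ratio 0.40, interval 0.10 to 0.69). Thus in 3 of the 4 homology groups the measured members lay on both sides of equality, and the exception was Fzd1, Fzd2 and Fzd7. The group sums had log2 ratios of -1.10 for Fzd3 and Fzd6, -0.44 for Fzd5 and Fzd8 and -0.21 for Fzd4, Fzd9 and Fzd10. In the pairs of Fzd3 with Fzd6 and Fzd5 with Fzd8, the sum follows the member with more reads. In the group of Fzd4, Fzd9 and Fzd10 the sum has the sign of Fzd4. There Fzd10 had the higher mean, 285 normalized reads against 263 for Fzd4.

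**Figure D3:**
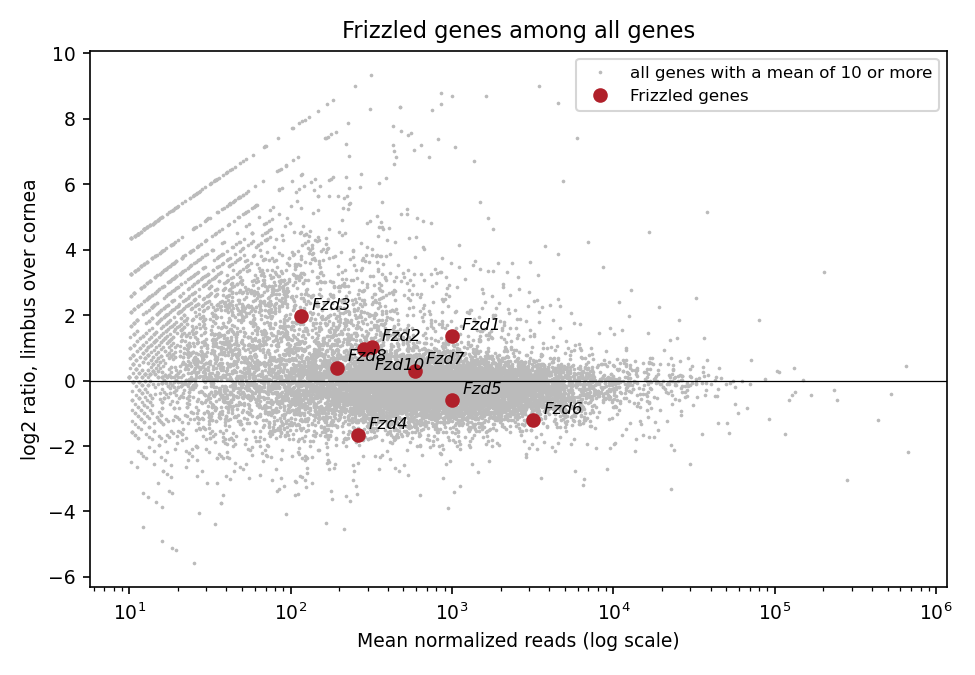
Log2 ratio of limbus over cornea against mean normalized reads (log axis) for genes with a mean of at least 10 and reads in both libraries (grey) and the 9 Frizzled genes among them (red). Fzd4 and Fzd6 lie near the lower edge of the cloud at their levels, and Fzd3 lies within the wide spread of limbal genes above it.

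The summed level of the family rested on Fzd6. All 10 genes together had 8005 corneal and 5925 limbal reads, or 7744 and 6125 normalized reads. This was 1.26-fold higher in the cornea (log2 ratio -0.34, interval -0.39 to -0.29). Without Fzd6, a sum added after the values were seen, the other 9 genes had 3419 and 4081 reads and were 1.28-fold higher in the limbus (log2 ratio 0.35, interval 0.29 to 0.42). A difference in the total of Frizzled transcripts therefore had no single direction over the family.

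Levels of different genes were set side by side per kilobase of merged exons. In the cornea Fzd6 had 921 normalized reads per kilobase, followed by Fzd5 (174), Fzd1 (132) and Fzd7 (117). Fzd10, Fzd4 and Fzd2 came next at 59.5, 59.5 and 57.3, and neighbours among these 3 were not apart beyond counting error. Fzd8 (28.0) and Fzd3 (3.70) came last of the detected receptors in the cornea. In the limbus Fzd6 had 396 normalized reads per kilobase and Fzd1 341, a ratio of 1.16 (interval 1.08 to 1.24). Fzd7 followed at 144, and then Fzd10, Fzd2 and Fzd5 at 116, 116 and 115, whose neighbours were not apart. Fzd8 (36.9), Fzd4 (18.8), Fzd3 (14.5) and Fzd9 (4.06) were lowest in the limbus. Fzd6 thus stayed at the top of the order in both tissues, Fzd1 passed Fzd5, and Fzd4 dropped below Fzd8.

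As shares of all Frizzled reads per kilobase, Fzd6 made up 59.3% in the cornea and 30.4% in the limbus, while Fzd1 made up 8.52% and 26.2%. The group of Fzd1, Fzd2 and Fzd7 took 19.8% in the cornea and 46.2% in the limbus. The share of Fzd5 was 11.2% and 8.80%, that of Fzd10 was 3.84% and 8.92%, and that of Fzd4 was 3.83% and 1.44%. The inverse Simpson index, which gives the number of equally used receptors with the same evenness, was 2.62 in the cornea and 5.05 in the limbus. As shares of plain reads, Fzd6 had 57.3% of the Frizzled reads in the cornea (exact interval 56.2 to 58.4) and 31.1% in the limbus (29.9 to 32.3), so the shift does not rest on the lengths used.

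**Figure D4:**
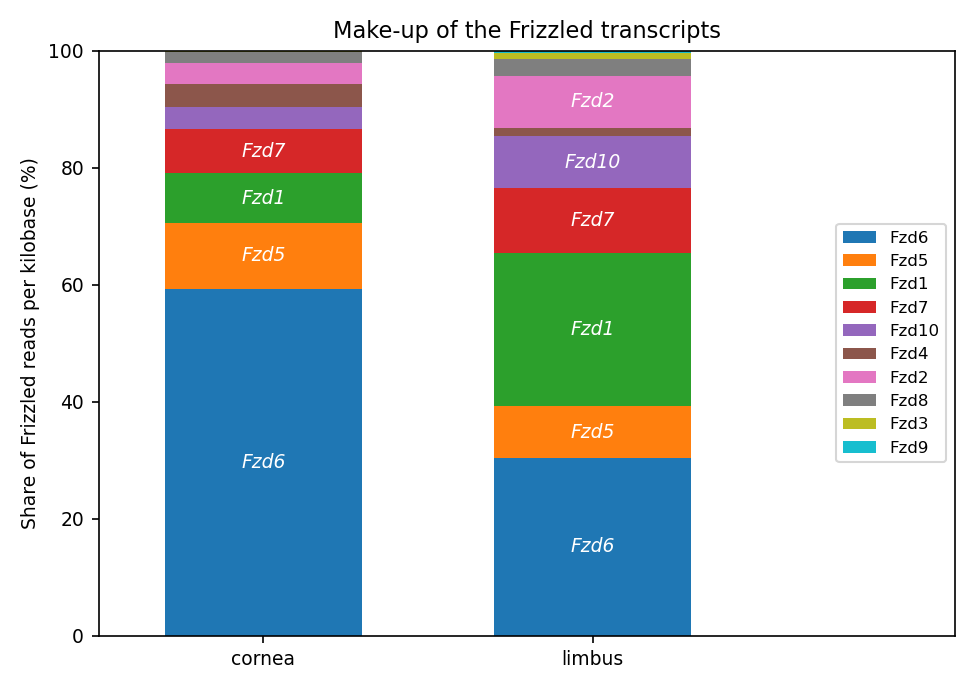
Share of each Frizzled gene in the Frizzled reads per kilobase of exon, stacked to 100% in each library. Fzd6 fills 59.3% of the corneal bar and 30.4% of the limbal bar, and Fzd1 grows from 8.52% to 26.2%.

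The ratio between paired receptors changed accordingly. Fzd6 was 6.96 times as abundant as Fzd1 per kilobase in the cornea and 1.16 times in the limbus. The ratio of Fzd6 to its relative Fzd3 was 248.7 in the cornea and 27.4 in the limbus. Fzd5 stood 6.22 times above Fzd8 in the cornea and 3.11 times in the limbus. Fzd4 and Fzd10 were level in the cornea, at a ratio of 0.999, and in the limbus Fzd10 was 6.19 times as abundant as Fzd4. Ratios of this kind compare genes within a library and so do not depend on how the libraries were scaled.

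The markers of the corneal epithelium give a scale for the genes higher in the cornea. The log2 ratio of Aldh3a1, a crystallin enzyme of the corneal epithelium, was -1.22, that of Krt12 was -2.19, that of the eye regulator Pax6 was -0.69 and that of Krt5, a keratin of basal cells, was -0.41. The ratio of Fzd6 (-1.22) was equal to that of Aldh3a1 at 2 decimals, that of Fzd4 (-1.66) lay between Aldh3a1 and Krt12, and that of Fzd5 (-0.60) lay between Krt5 and Pax6. Clu, also expressed in corneal epithelium, was higher in the limbus at 0.89. Of the keratocyte genes, Kera and Aldh1a1 were at -2.99 and -2.16, Lum at -0.01 and Ptgds at 3.49. Whether the corneal Frizzled genes are expressed in epithelium or stroma was not measured in these bulk libraries.

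Among 40 Wnt pathway genes with a mean of at least 50 normalized reads, the log2 ratios nearest to that of Fzd6 were those of Dkk3 (-1.25), Wnt2 (-1.10) and Csnk1a1 (-1.09). Dkk3 is a secreted relative of the Dickkopf antagonists, Wnt2 a ligand and Csnk1a1 a casein kinase that marks beta-catenin for destruction. This likeness is measured over only 1 ratio between 2 libraries.

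The Wnt ligands, which bind the Frizzled receptors, had no common direction. Of 19 genes, 11 had a mean of at least 10, of which 5 were limbal, 5 corneal and 1 neither by the counting rule, and their median log2 ratio was -0.17. Wnt4 had the most reads, 7689 corneal and 8718 limbal (log2 ratio 0.28). It was followed by Wnt7b with 2876 and 2084 (-0.37) and Wnt10a with 693 and 1350 (1.06). The ligands farthest from equality were both limbal, Wnt5b with 46 and 445 reads (3.37) and Wnt2b with 0 and 30 reads, at least 3.32-fold higher with the cornea set to 3 reads. Wnt1, Wnt8a, Wnt8b and Wnt9b are listed at 0.

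The co-receptors were mixed. Of 6 genes, 2 were limbal, 1 was corneal and 3 were neither, with a median log2 ratio of 0.22. The kinase-like receptor Ryk had 2390 and 2187 reads (-0.03), Ptk7 had 1548 and 1526 (0.08) and Lrp6, which passes on the beta-catenin signal, had 1660 and 1204 (-0.37). Farthest from equality were Ror2, a receptor for Wnt5a, with 40 and 138 reads (1.88) and Ror1 with 11 and 21 (1.03), whose interval of -0.09 to 2.23 includes equality.

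The measured genes of the list of Norrin and Frizzled partner proteins moved against Fzd4. Ndp, which encodes Norrin, had 0 corneal and 2 limbal reads, at or under the floor in both. Tspan12, the tetraspanin that joins Fzd4 in the Norrin receptor, had 65 and 364 reads (log2 ratio 2.58), against -1.66 for Fzd4. Reck and Gpr124, which present Wnt7 ligands to Frizzled on brain vessels, had 19 and 279 reads (3.97) and 143 and 583 reads (2.12). The 3 measured partner genes were all higher in the limbus, as were the 7 vessel markers, and the part of vessels in them was not tested.

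Genes that set the amount of Frizzled at the cell surface differed less where they were well expressed. Of the 5 with a mean of at least 10, 3 were limbal, 1 was corneal and 1 was neither. The R-spondin receptor Lgr4 had 1604 and 1332 reads (log2 ratio -0.17). The ubiquitin ligases that remove Frizzled from the membrane were Rnf43, with 430 and 538 reads (0.42), and Znrf3, with 342 and 351 (0.13, interval -0.09 to 0.35). Farthest from equality were Rspo1, which protects Frizzled from these ligases, with 0 and 37 reads, at least 4.17-fold higher in the limbus, and Lgr6 with 1 and 24 reads, a ratio of 25.6-fold taken from the reads as they are, whose log2 interval of 2.06 to 10.04 is wide because it rests on 1 corneal read.

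Secreted antagonists were mostly limbal by number but not by reads. Of 9 with a mean of at least 10, 7 were limbal and 2 corneal, with a median log2 ratio of 1.39. The genes with the most reads were Dkk3 with 8883 and 3503 (-1.25), Sfrp1, a soluble protein with a Frizzled-like domain, with 4434 and 4961 (0.26), and Dkk2, which blocks Lrp5 and Lrp6, with 1494 and 870 (-0.68). Farthest from equality were Sfrp2, a decoy for Wnt ligands, with 28 and 681 reads (4.70), and its relatives Sfrp4 and Sfrp5, each with 0 and 24 reads and at least 2.60-fold higher in the limbus. Summed over the list, normalized reads were 1.36-fold higher in the cornea, against the direction of the median.

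Inside the cell, Dishevelled genes were level or close to it. Of 9 genes for Dishevelled and the destruction complex, 2 were limbal, 4 corneal and 3 neither, with a median log2 ratio of -0.07. Ctnnb1, which encodes beta-catenin, had 19010 and 13895 reads (-0.36), Csnk1a1 had 7250 and 3198 (-1.09) and the scaffold Apc had 3684 and 1820 (-0.92). Axin2, which is both a brake on the pathway and one of its target genes, was farthest from equality on the limbal side with 106 and 432 reads (2.12). Dvl1, Dvl2 and Dvl3, the proteins that bind Frizzled inside the cell, are named here after their values were seen and had log2 ratios of 0.19, -0.07 and 0.10.

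**Figure D5:**
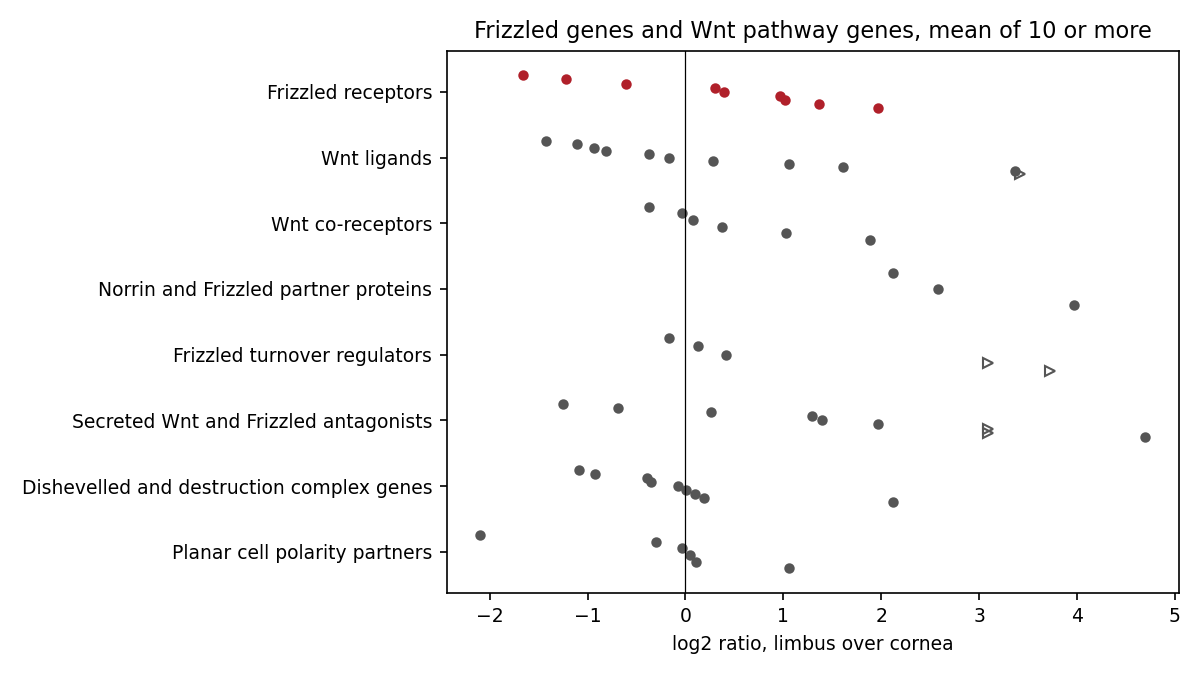
Log2 ratio of limbus over cornea for Frizzled genes (red) and 7 lists of Wnt pathway genes (grey), 1 point per gene with a mean of at least 10 normalized reads. Open triangles are genes with 3 corneal reads or fewer, drawn with the cornea set to 3 reads. Frizzled genes span -1.66 to 1.96, co-receptors span -0.37 to 1.88 and the partner proteins Gpr124, Tspan12 and Reck lie above 2.

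On the genome (GRCm38, GENCODE M21), Fzd1, Fzd2, Fzd7, Fzd8, Fzd9 and Fzd10 are single-exon genes, while Fzd3 and Fzd6 have 7 exons in their main transcript and Fzd4 and Fzd5 have 2. The genes with the largest changes in share (Fzd6 and Fzd1) and the gene with the lowest ratio (Fzd4) lie at chr15:39006034-39038188 on the plus strand (Fzd6), chr5:4753839-4758035 on the minus strand (Fzd1) and chr7:89404355-89413134 on the plus strand (Fzd4). Of the 6 single-exon genes, 5 were higher in the limbus and Fzd9 had no direction. Of the 4 genes with several exons, only Fzd3 was higher in the limbus, so the 3 corneal genes all have introns. The same split was not made over all genes, so this is a description of the list. Coding sequences of Fzd1 and Fzd2 were 82.0% identical, the closest pair, and no pair of Frizzled coding sequences shared a stretch of 75 bases, so reads of that length could be told apart. The transcript model Gm38058 lies opposite Fzd5 over 17.8% of its transcript, and the long noncoding Gm26704 lies opposite Fzd6 over 3.51%. Whether counting used strand is not given in the sources used here, so reads of these neighbours could be in the values of Fzd5 and Fzd6.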

How the data were processed

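Per the study's methods, paired-end reads of stranded total RNA libraries were mapped in CLC Genomics Workbench to the GRCm38 (mm10) genome, with trimmed mean of M-values normalization. The authors deposited 1 table of 40904 rows, of which 17484 name no gene and were left out. The signal that the authors deposited is a mean over libraries of reads divided by a size factor. The log2 fold change that the authors deposited is shrunken and stands beside its standard error, p-value and adjusted p-value. These comparison columns are the authors' own and are not reported; the fold change and error served only to choose among the pairs of whole reads that each mean allows.

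The mean fits reads of 2 libraries, 109 cornea reads counting as much as 102 limbus reads. It allowed 1 pair for 6143 genes and several for 11299, and the chosen pair met the fold change and error within 0.001 in sum for 17411 of 17442 genes (99.8%). For the 10 Frizzled genes the chosen pair missed by 6.9e-06 or less and the next best by 0.000653 or more. Reads are therefore derived values. The method was tested on simulated data. The design had allowed for counts per sample; with 1 library per tissue no test was run.

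The table's accession column was not used, since none of the 10 accessions belongs to its row's gene in RefSeq (2 of 18556 over the table), and each gene's identity rests on its symbol. Adgra2 and Chil1 are listed under the older symbols Gpr124 and Chi3l1. From the marker lists, 2 genes were left out and are not reported here. Members, lists and rules were chosen with earlier results of these data known. All 10 Frizzled genes were named, and of each list of direct partners the 3 genes with the most normalized reads and the 2 with log2 ratios farthest from 0 at a mean of at least 10. Lengths are merged GENCODE M21 exons, and promoters are from the RefSeq table of GRCm38.p6. Alternatives were scaling to total reads or by a trimmed mean of M-values (30% and 5% trimmed), a pseudocount of 1, means of at least 10 and 50, a 99% interval, longest transcripts and the next best pair. Python 3.11.15, numpy 2.4.6, scipy 1.17.1, pandas 2.3.3, Biopython 1.88 and BLAST 2.17.0 were used.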

Additional observations from a re-analysis of the deposited data

How the results depend on the processing

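The counts of 6 limbal and 3 corneal Frizzled genes stayed within 1.5 times under every alternative run, and no gene changed direction with the scaling. Scaling to total reads added 0.21 to every log2 ratio, and the trimmed mean of M-values added 0.02. Under total reads the limbal part of all called genes went from 47.1% to 61.7% (48.3% with the trimmed mean), the summed Frizzled ratio went from -0.34 to -0.13, and Fzd1, Fzd5, Fzd6 and Fzd7 stood at 1.57, -0.40, -1.01 and 0.51. The sum without Fzd6, chosen after seeing the data, was reversed at 0.35, and at 0.56 after scaling to total reads. With the next best pair of reads, Fzd3 was reversed at -0.94 and 8 other genes moved without changing sign, and that pair missed the deposited values by 0.000653 (Fzd6) or more. With the longest transcript in place of merged exons, Fzd6 took 61.9% and 32.7% of the Frizzled reads per kilobase. No paired analysis was possible because numbered samples have no values of their own in the table. Leaving out a numbered sample was not run for the same reason. The depth gives counting intervals alone, and Fzd9, at 0 and 9 reads, has no direction under the rule that sets 3 reads or fewer to 3.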

Other observations

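The planar cell polarity genes, which act with Fzd3 and Fzd6 in orienting cells, had no common direction. Of the 6 with a mean of at least 10 normalized reads, 1 was higher in the limbus, 2 in the cornea and 3 in neither, with a median log2 ratio of 0.01. The members at either end, named after their values were seen, were Prickle2, with 1469 corneal and 321 limbal reads (log2 ratio -2.10, interval -2.28 to -1.92), and Prickle1, with 118 and 230 (1.06, interval 0.73 to 1.39). These related genes thus lay on opposite sides, as Fzd3 (1.96) and Fzd6 (-1.22) did. Of the core genes, Celsr1 was higher in the cornea with 2555 and 1940 reads (-0.30, interval -0.39 to -0.22). Vangl1, Vangl2 and Celsr2 had log2 ratios of 0.05, -0.03 and 0.11, and the intervals of these 3 include equality.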
